A study of Mus musculus with 8 samples.

Results

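Collagens are the structural proteins of the extracellular matrix, and 39 collagen genes were described here in whole mouse kidneys. The genes were chosen by symbol (Col, a type number, the letter a and a chain number), with Col19a1 left out and with a minimum of 10 reads summed over 8 libraries. Of 37583 gene identifiers in the deposited counts, 32860 had a symbol, 44 symbols had this form, 43 remained after Col19a1 was left out, and 39 reached the minimum. The 4 genes below it were cartilage collagens and a tissue-junction collagen, Col2a1 (6 reads in all), Col9a1 (2 reads), Col9a2 (5 reads) and Col22a1 (3 reads). The members fell into 10 fibrillar genes, 6 type IV genes, 6 type VI genes and 17 others.

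The 4 libraries labelled knockout came from mice of the genotype Six2Cre+TFAP2Afl/flTFAP2Bfl/WT, that is, with Cre driven by Six2 (a transcription factor gene of the nephron progenitor), with both Tfap2a alleles floxed and with 1 Tfap2b allele floxed. The 4 libraries labelled wildtype came from control littermates whose genotype is given as WT. The labels do not say whether those littermates carried Cre or a floxed allele, and they give no age, sex, litter or batch. The question was which kidney transcripts differ when these AP-2 transcription factors are targeted in cells that have expressed Six2. A whole kidney also holds stroma, vessels and collecting duct, which lie outside the Six2 lineage.

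The targeted genes did not have lower counts in the knockout-labelled libraries. Tfap2a was at 5.05 ± 0.99 CPM in the knockout-labelled libraries and 4.22 ± 1.08 CPM in the wildtype-labelled ones (SD, n = 4 each; CPM is a gene's reads relative to all reads assigned to genes, at 1 common library size). Tfap2b was at 80.0 ± 20.3 CPM in the knockout-labelled libraries and 78.3 ± 20.5 CPM in the wildtype-labelled ones. The genotype labels were thus not borne out by these counts, and every direction given here rests on the labels alone. Counts over a whole gene include exons outside a floxed part.

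A collagen molecule is a triple helix of 3 alpha chains, and each chain has its own gene. Fibrillar collagens such as types I and III build the cables of connective tissue and are made in the kidney mainly by fibroblasts and vessel wall cells. Type IV collagen forms the mesh of basement membranes. The alpha 1 and alpha 2 chains are found in nearly all of these, and the alpha 3, alpha 4 and alpha 5 chains form the network of the mature glomerular filter, whose loss causes Alport syndrome. Type VI collagen forms beaded filaments at the border of basement membrane and stroma. In bulk tissue, fewer cells of a type and less RNA per cell cannot be told apart.

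Type IV genes lie in pairs that start next to each other on opposite strands. Col4a1 and Col4a2 on chromosome 8 have first exons that overlap by 22 bases, and Col4a3 and Col4a4 on chromosome 1 start 71 bases apart (GENCODE M21, GRCm38). The start regions below are shown because each pair shares them and, as described further on, the chains of each pair varied together. Each runs from 250 bases before the start of transcription to 50 bases after it, 5′ to 3′ on the strand of the gene named (RefSeq, GRCm38.p6). In the Col4a2 sequence, on the plus strand at chr8:11312555-11312854, capitals mark the 22 bases shared by both first exons. In the Col4a4 sequence, on the minus strand at chr1:82586800-82587099, capitals mark the 71 bases between both starts. In the Col6a6 sequence, on the minus strand at chr9:105828036-105828335, capitals mark a match to the AP-2 half-site motif GCCNNNGGC, shown because AP-2 factors were the targets and Col6a6 was the most abundant type VI gene.
Col4a2: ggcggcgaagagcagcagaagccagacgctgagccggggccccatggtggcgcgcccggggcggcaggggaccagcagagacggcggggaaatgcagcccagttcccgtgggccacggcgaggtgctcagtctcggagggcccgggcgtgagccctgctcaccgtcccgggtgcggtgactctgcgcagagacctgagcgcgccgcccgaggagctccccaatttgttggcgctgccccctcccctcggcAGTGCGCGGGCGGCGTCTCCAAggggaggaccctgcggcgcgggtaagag
Col4a4: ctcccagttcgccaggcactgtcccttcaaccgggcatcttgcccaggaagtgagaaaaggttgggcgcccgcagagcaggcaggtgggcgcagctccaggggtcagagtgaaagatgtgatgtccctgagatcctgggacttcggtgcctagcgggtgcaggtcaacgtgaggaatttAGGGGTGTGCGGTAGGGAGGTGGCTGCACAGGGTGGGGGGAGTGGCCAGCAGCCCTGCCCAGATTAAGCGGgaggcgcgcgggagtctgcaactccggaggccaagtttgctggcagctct
Col6a6: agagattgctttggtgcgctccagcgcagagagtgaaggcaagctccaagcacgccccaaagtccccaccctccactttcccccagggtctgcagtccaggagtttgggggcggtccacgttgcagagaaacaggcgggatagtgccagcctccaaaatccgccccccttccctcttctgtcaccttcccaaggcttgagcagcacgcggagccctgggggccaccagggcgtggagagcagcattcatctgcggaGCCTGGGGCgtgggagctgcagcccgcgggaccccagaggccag

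GC content was 73.7% in the Col4a2 window, 63.3% in the Col4a4 window and 65% in the Col6a6 window, against a median of 52.7% over all 32851 promoter windows of 300 bases. The motif GCCNNNGGC, which reads the same on both strands, was present in windows of 8 of the 32 members that had one (25%), against 16.6% of all windows. Counted by window, it was in 8 of the 34 windows of these members. The 8 members were Col16a1, Col4a1, Col4a2, Col5a1, Col5a3, Col6a2, Col6a5 and Col6a6. The GC box GGGCGG, read on both strands, was present in 21 of 32 members (65.6%), against 35.7% of all windows. The CCAAT box was present in 12 members (37.5%), against 37.4%, and TATAAA in 5 members (15.6%), against 13.6%. The member shares count genes, while the background counts windows and was not matched for GC content. These matches are letters in a window and say nothing about binding.

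Collagen reads made up 0.126% to 0.201% of gene counts in a library. Levels were also counted per kilobase of exon, with the union of all annotated exons of a gene as its length. This length can exceed that of the transcript made, so comparisons between genes are approximate. On this scale the type IV genes Col4a1, Col4a4 and Col4a2 stood highest. Mean levels over the 8 libraries were 33.3 CPM per kilobase for Col4a1, 24.8 for Col4a4, 23.6 for Col4a2, 17.7 for Col4a3 and 7.86 for Col4a5. Col4a6, the chain of smooth muscle and some epithelial basement membranes, was at 0.45 CPM per kilobase. Outside type IV, Col18a1 reached 23.2, Col6a6 11.1 and Col27a1 10.3 CPM per kilobase. The type I chains were lower, with 5.71 CPM per kilobase for Col1a2 and 4.07 for Col1a1, and Col3a1 was at 5.11. In all, 19 members averaged at least 10 CPM, 12 averaged 1 to 10 CPM and 8 averaged under 1 CPM.

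**Figure D1:**
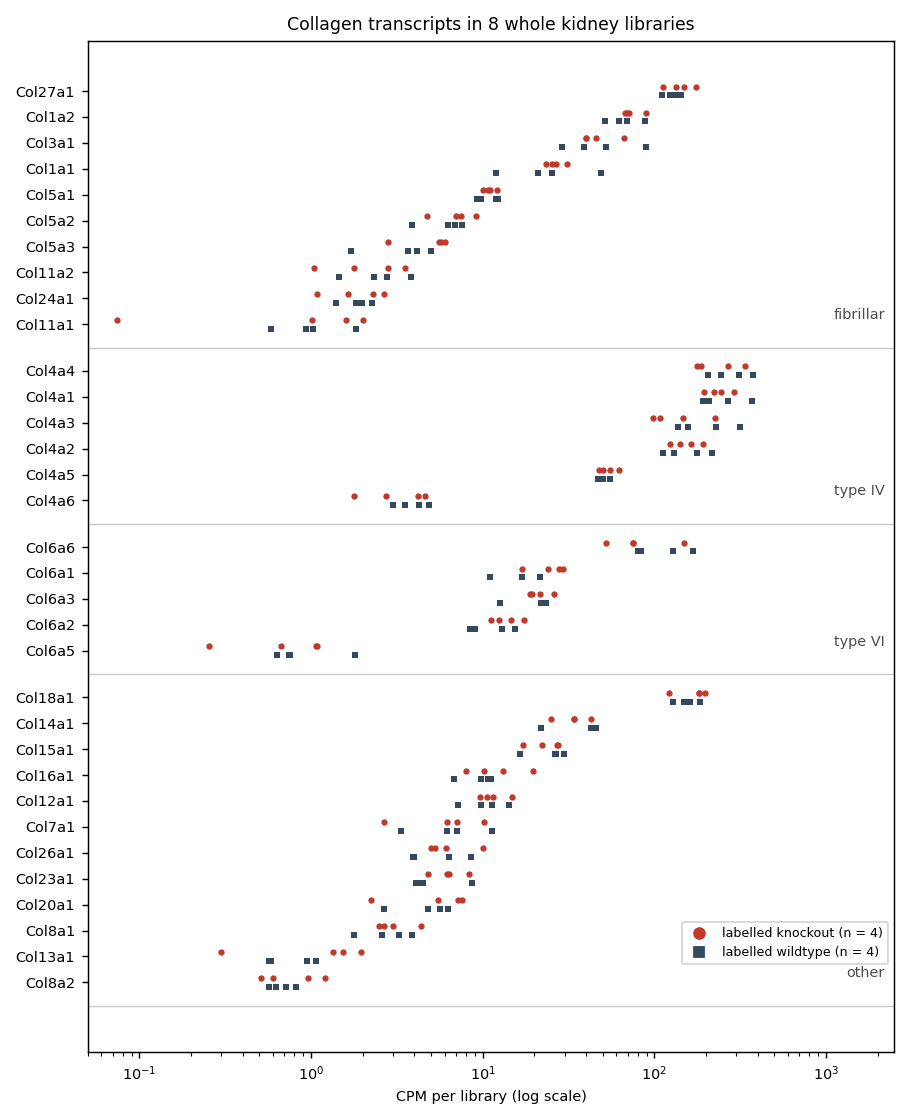
CPM of the 33 collagen genes that passed the filter on low counts, on a log axis, with 1 point per library; circles above are the 4 libraries labelled knockout and squares below are the 4 labelled wildtype. The groups overlap for each of the 33 genes, and Col4a4 and Col4a1 have the highest CPM.

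No collagen gene passed the test of a difference between the groups. Of the 39 members, 33 passed the filter on low counts and were tested with edgeR's quasi-likelihood test among 14433 genes. The test called 0 of the 33 at an adjusted p under 0.05 and 0 at an unadjusted p under 0.05, against a background over all genes of 0% and 4.00%. DESeq2 called 0 members, against 0.0163% of all genes, and had 0 at an unadjusted p under 0.05, against 2.91%. Limma-voom called 0 members, against 0% of all genes, and had 0 at an unadjusted p under 0.05, against 4.06%. The lowest unadjusted p was 0.0681, for Col6a1, and adjusted p-values by edgeR ran between 0.957 and 0.999. The libraries of both groups overlapped for all 39 members, while 1.97% of all genes tested had groups that did not overlap.

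The log2 differences, labelled knockout minus labelled wildtype, ran between -0.54 for Col4a3 and 0.71 for Col13a1, a transmembrane collagen. Of the 33 genes, 20 had a positive difference (60.6%, against 51.3% of all genes) and 13 a negative one. The median difference was 0.09, against 0.01 over all genes tested. The 95% interval lay within 1 log2 unit of 0 for 22 of 33 members, against 86.5% of all genes, so a 2-fold difference lay outside the interval for those 22 and inside it for the other 11.

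**Figure D2:**
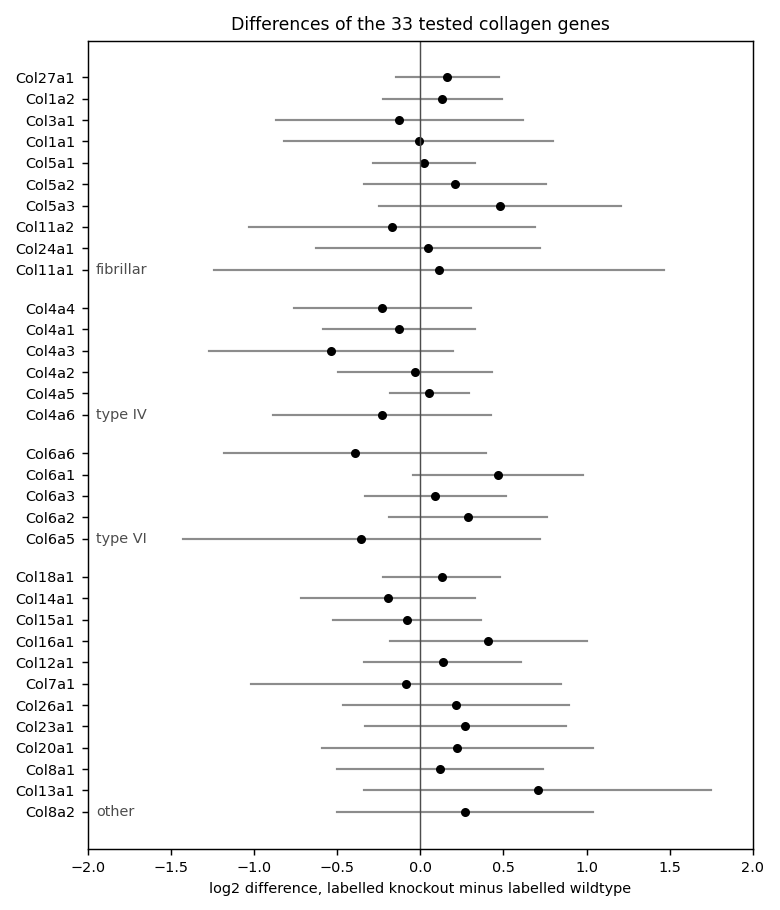
Log2 difference, labelled knockout minus labelled wildtype, for the 33 tested collagen genes by class; points are estimates and lines are 95% intervals from the quasi-likelihood fit of edgeR. Each interval includes 0, and the widest belongs to Col11a1, a gene of about 1 CPM.

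Among the fibrillar genes, 7 of 10 had a positive and 3 a negative difference. Their summed level was 345, 338, 269 and 326 CPM in the knockout-labelled libraries, against 263, 298, 252 and 387 CPM in the wildtype-labelled ones. Means were 319 ± 34.7 CPM in the knockout-labelled libraries and 300 ± 61.5 CPM in the wildtype-labelled ones (SD, n = 4 each), a difference of 0.10 on the log2 scale with a within-group SD of 0.23. The highest and the lowest library of all 8 were both labelled wildtype.

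Col27a1, a fibrillar collagen known from cartilage, was the fibrillar gene with the highest CPM. It was at 133, 174, 112 and 148 CPM in the knockout-labelled libraries, against 143, 123, 110 and 132 CPM in the wildtype-labelled ones. The difference was 0.16 (SE 0.14; 95% interval -0.15 to 0.47) and knockout replicate 2 was the highest library. Col1a2, which encodes the alpha 2 chain of type I collagen, was at 88.8, 67.8, 71.2 and 69.3 CPM in the knockout-labelled libraries, against 51.3, 69.0, 62.1 and 88.5 CPM in the wildtype-labelled ones. Knockout replicate 1 and wildtype replicate 4 stood above the rest, wildtype replicate 1 stood below, and the difference was 0.13 (SE 0.16; 95% interval -0.22 to 0.49).

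Col3a1, the only chain of type III collagen, was at 66.8, 39.9, 39.8 and 45.5 CPM in the knockout-labelled libraries, against 29.1, 52.5, 39.1 and 88.9 CPM in the wildtype-labelled ones. Its highest and lowest libraries were again wildtype replicates 4 and 1, and the range of the wildtype libraries enclosed that of the others. The difference was -0.13 (SE 0.33; 95% interval -0.87 to 0.62), and it turned to 0.25 without wildtype replicate 4. Col1a1, the alpha 1 chain of type I, showed the same order of extremes, with 23.5 to 31.0 CPM in the knockout-labelled libraries and 11.9 to 49.2 CPM in the wildtype-labelled ones; its difference was -0.01 (SE 0.36).

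The remaining fibrillar genes had a lower CPM. Type V collagen helps to start type I fibrils. Of its genes, Col5a1 spanned 10.02 to 12.06 CPM in the knockout-labelled libraries and 9.23 to 12.3 CPM in the wildtype-labelled ones. Col5a2 spanned 4.75 to 9.14 CPM in the knockout-labelled libraries and 3.86 to 7.56 CPM in the wildtype-labelled ones, and Col5a3 spanned 2.82 to 6.00 CPM in the knockout-labelled libraries and 1.71 to 4.97 CPM in the wildtype-labelled ones. Col5a1 was among the steadiest members, with a within-group SD of 0.16 on the log2 scale. The type XI genes Col11a1 and Col11a2 and the fibrillar Col24a1 averaged 1.13, 2.44 and 1.89 CPM over all libraries. Col11a1 was under the limit of 0.223 CPM that a count of 0 allows in knockout replicate 3, at 0.074 CPM.

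Type IV genes held 54.3% of collagen CPM on average. Their summed level was 690, 878, 666 and 1110 CPM in the knockout-labelled libraries, against 756, 1334, 735 and 1042 CPM in the wildtype-labelled ones. Means were 836 ± 206 CPM in the knockout-labelled libraries and 967 ± 282 CPM in the wildtype-labelled ones, a difference of -0.20 on the log2 scale with a within-group SD of 0.38. Of the 6 genes, 1 had a positive and 5 a negative difference, and no difference passed the test.

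Col4a4, a chain of the glomerular network, was at 178, 269, 186 and 338 CPM in the knockout-labelled libraries, against 245, 377, 206 and 310 CPM in the wildtype-labelled ones. Its partner Col4a3 was at 97.7, 148, 107 and 224 CPM in the knockout-labelled libraries, against 136, 314, 158 and 229 CPM in the wildtype-labelled ones. Both genes were high in knockout replicate 4 and in wildtype replicates 2 and 4, and lowest in knockout replicate 1. The difference was -0.23 for Col4a4 (SE 0.24; 95% interval -0.76 to 0.31) and -0.54 for Col4a3 (SE 0.32; 95% interval -1.27 to 0.20; unadjusted p = 0.133 by edgeR).

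The Col4a3 difference moved with the libraries used: it was -1.03 without knockout replicates 2 and 4, -0.83 without knockout replicate 4 alone and -0.27 without wildtype replicate 2. Unadjusted p-values by edgeR were 0.0163, 0.0212 and 0.385 in these fits, with adjusted p-values of 0.743, 0.900 and 1.00. Knockout replicates 2 and 4 carried raised heat-shock transcripts, whose 5 listed genes summed to 829 and 1303 CPM there and to 312 to 410 CPM in the other 6 libraries; the part of this in the Col4a3 values was not tested. In the fit without both libraries, Col4a4 was at -0.64 (unadjusted p = 0.0258, adjusted p = 0.743 by edgeR), and Col4a3, Col4a4, Col4a6 and Col6a6 were the 4 of 33 members at an unadjusted p under 0.05, as were 904 of all 14918 genes; 0 members were called. The Col4a4 difference was -0.06 without wildtype replicate 2. Podocytes make the glomerular alpha 3 and alpha 4 chains. The 8 podocyte markers summed to 238 to 303 CPM in the knockout-labelled libraries and 197 to 300 CPM in the wildtype-labelled ones, with 8 of 8 differences positive and no marker at 0, and the part of this was not tested. Of the exon bases of Col4a3, 5.65% overlap another annotated gene, C430014B12Rik, and the counting ignored strand, so this share of its reads is uncertain.

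Col4a1, the alpha 1 chain of nearly all basement membranes, was at 222, 244, 193 and 289 CPM in the knockout-labelled libraries, against 192, 369, 207 and 269 CPM in the wildtype-labelled ones. Wildtype replicate 2 was the highest library, and the difference was -0.13 (SE 0.21; 95% interval -0.59 to 0.33), or 0.09 without that library. Col4a2, which supplies the alpha 2 chain to the same molecules, spanned 123 to 192 CPM in the knockout-labelled libraries and 112 to 216 CPM in the wildtype-labelled ones, with a difference of -0.03 (SE 0.21). Col4a5 was the steadiest member. It spanned 47.6 to 62.3 CPM in the knockout-labelled libraries and 46.9 to 55.2 CPM in the wildtype-labelled ones, with a within-group SD of 0.14 and a difference of 0.05 (SE 0.11; 95% interval -0.18 to 0.29). Col4a6 spanned 1.78 to 4.61 CPM in the knockout-labelled libraries and 3.00 to 4.87 CPM in the wildtype-labelled ones.

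**Figure D3:**
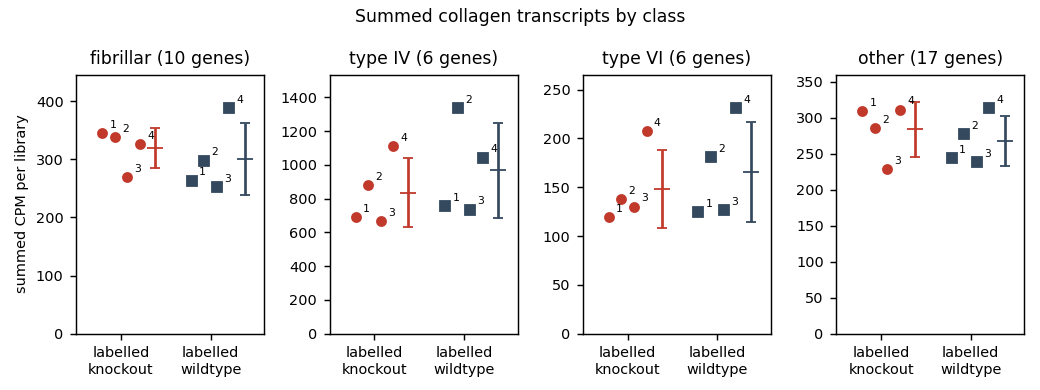
Summed CPM of the collagen classes per library, with numbered replicates; horizontal marks are means and bars are ± 1 SD over 4 libraries. The knockout-labelled libraries lie left of the wildtype-labelled ones, and both groups overlap in each class.

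Type VI genes summed to 120, 138, 130 and 207 CPM in the knockout-labelled libraries, against 124, 181, 126 and 231 CPM in the wildtype-labelled ones. Means were 149 ± 39.9 CPM in the knockout-labelled libraries and 166 ± 50.8 CPM in the wildtype-labelled ones, and replicate 4 of each group was its highest library. Among the 5 tested genes, 3 had a positive and 2 a negative difference. Col6a6 encodes a chain that can take the place of alpha 3 in the molecule. It was at 52.4, 75.5, 75.0 and 148 CPM in the knockout-labelled libraries, against 80.6, 128, 83.7 and 168 CPM in the wildtype-labelled ones, with a difference of -0.39 (SE 0.35; 95% interval -1.18 to 0.40). This value moved with single libraries, to -0.76 without knockout replicate 4 and -0.15 without wildtype replicate 4 (unadjusted p = 0.0222 and 0.667, adjusted p = 0.900 and 1.00 by edgeR). It was -0.85 without knockout replicates 2 and 4, and -0.52 without replicate 4 of both groups (unadjusted p = 0.0368 and 0.0390, adjusted p = 0.743 and 0.999 by edgeR).

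Col6a1, the alpha 1 chain, had the lowest unadjusted p of all members. It was at 27.9, 29.5, 16.99 and 24.0 CPM in the knockout-labelled libraries, against 21.6, 16.8, 11.1 and 21.6 CPM in the wildtype-labelled ones. In the knockout-labelled libraries, 3 of 4 values lay above all values of the others, and knockout replicate 3 lay within their range. The difference was 0.47 (SE 0.23; 95% interval -0.04 to 0.98; unadjusted p = 0.0681 and adjusted p = 0.957 by edgeR), and without each library in turn it ran between 0.30 and 0.61.

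Col6a3, the long alpha 3 chain, was at 21.6, 18.8, 26.0 and 19.2 CPM in the knockout-labelled libraries, against 12.7, 22.2, 21.9 and 23.5 CPM in the wildtype-labelled ones. Wildtype replicate 1 was the lowest library, and the difference was 0.09 (SE 0.19; 95% interval -0.33 to 0.52). Col6a2 spanned 11.2 to 17.4 CPM in the knockout-labelled libraries and 8.44 to 15.4 CPM in the wildtype-labelled ones, with a difference of 0.29 (SE 0.21). Col6a5 averaged 0.88 CPM, and Col6a4, at 0.22 CPM, did not pass the filter.

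Of the 17 other collagens, 12 were tested, of which 9 had a positive and 3 a negative difference. Their summed level was 284 ± 38.6 CPM in the knockout-labelled libraries and 268 ± 34.6 CPM in the wildtype-labelled ones, a difference of 0.08 on the log2 scale. Col18a1, a basement membrane collagen whose end fragment is endostatin, was at 181, 182, 121 and 198 CPM in the knockout-labelled libraries, against 149, 162, 129 and 184 CPM in the wildtype-labelled ones. Knockout replicate 3 was the lowest library and the difference was 0.13 (SE 0.16; 95% interval -0.23 to 0.48).

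Col14a1, which binds to the surface of fibrils, was at 34.1, 24.9, 42.6 and 34.1 CPM in the knockout-labelled libraries, against 21.8, 42.4, 45.6 and 45.1 CPM in the wildtype-labelled ones. Col15a1, which links basement membranes to nearby fibrils, was at 27.2, 17.2, 27.6 and 22.1 CPM in the knockout-labelled libraries, against 16.5, 26.6, 26.4 and 29.8 CPM in the wildtype-labelled ones. For both, knockout replicate 2 and wildtype replicate 1 were the lowest library of their group. The difference was -0.19 for Col14a1 (SE 0.23; 95% interval -0.72 to 0.33) and -0.08 for Col15a1 (SE 0.20; 95% interval -0.52 to 0.36).

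Knockout replicate 2 and wildtype replicate 1 also carried transcripts of the adrenal cortex. The 5 listed markers summed to 911 CPM in knockout replicate 2 and 880 CPM in wildtype replicate 1, and to 4.52 to 11.4 CPM in the other 6 libraries. In their groups these libraries were the lowest for Col14a1, Col15a1, Col6a3, Col1a1 and Col1a2. They were the highest for the transmembrane collagen Col23a1 and for Col27a1, Col5a3, Col11a2 and Col7a1. The same held for Col8a2 and Col9a3, which averaged under 1 CPM. Col23a1 was at 6.22, 8.36, 4.82 and 6.35 CPM in the knockout-labelled libraries, against 8.64, 4.51, 4.11 and 4.13 CPM in the wildtype-labelled ones. These genes were picked out after their values were seen, and the part of adrenal tissue in them was not tested. Without both libraries, the differences were -0.26 for Col14a1 and -0.01 for Col6a3, and edgeR called 0 collagen genes, with 1 of 32 (Col23a1) and 770 of all 14500 genes at an unadjusted p under 0.05.

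Among the rest, Col16a1 and Col12a1, which attach to fibrils, averaged 11.2 and 11.1 CPM over all libraries, with differences of 0.41 (SE 0.27) and 0.13 (SE 0.21). Col7a1, which forms anchoring fibrils below epithelia, averaged 6.75 CPM with a difference of -0.09 (SE 0.42). Col26a1 and Col20a1 averaged 6.17 and 5.23 CPM, and the short-chain genes Col8a1 and Col8a2 averaged 3.00 and 0.75 CPM. Col13a1 had the highest difference of the family, 0.71 (SE 0.47; 95% interval -0.34 to 1.75), at 0.297 to 1.97 CPM in the knockout-labelled libraries and 0.569 to 1.06 CPM in the wildtype-labelled ones. Col25a1, Col9a3, Col28a1, Col17a1 and Col10a1 averaged 0.089 to 0.369 CPM, near the limit that a count of 0 allows (0.188 to 0.223 CPM by library), and were not tested.

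**Figure D4:**
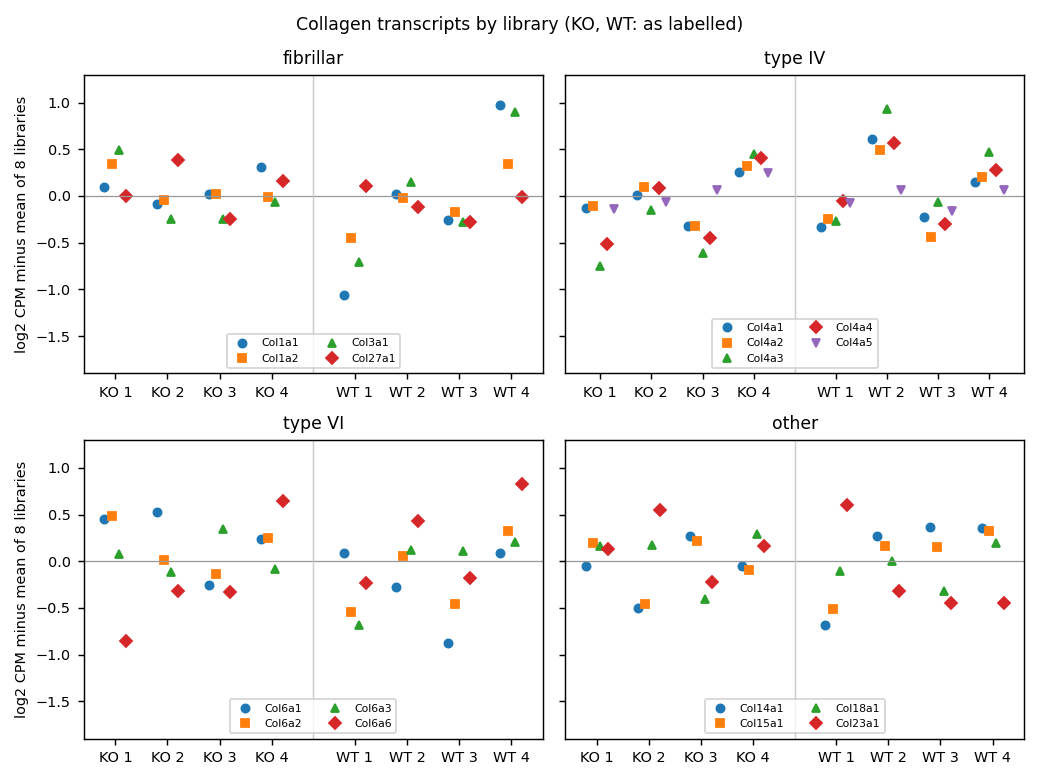
Log2 CPM of leading collagen genes in each library, minus the mean of that gene over all 8 libraries, by class; KO and WT are the libraries as labelled, with replicate numbers. Col1a1 and Col3a1 span the widest range between WT 1 and WT 4, Col4a3 peaks in WT 2, Col6a6 is high in KO 4 and WT 4, and Col4a5 stays near 0.

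Collagen genes varied more between libraries of a group than most genes did. Among genes with at least 10 CPM, the within-group SD of log2 CPM had a median of 0.35 over 19 collagen genes, against 0.18 over 9489 genes, and 17 of the 19 lay above the median of all genes. Over all tested genes these medians were 0.42 for the 33 collagen genes and 0.23. These are descriptions without a test.

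Chains that assemble together, and Col1a1 with Col3a1 from different collagen types, were compared over the 8 libraries in 9 pairs. Exact permutation tests over 40320 arrangements were used, two-sided, with p-values adjusted over the 9 pairs. The partner chains of type IV moved most closely together. Col4a1 and Col4a2 had Pearson's r = 0.946 (exact permutation p = 0.000372, adjusted p = 0.00335) and Spearman's rho = 0.905 (exact permutation p = 0.00456, adjusted p = 0.0205). Col4a3 and Col4a4 had r = 0.938 (exact permutation p = 0.00122, adjusted p = 0.00547) and rho = 0.905 (exact permutation p = 0.00456, adjusted p = 0.0205). Leaving out the 2 libraries farthest from the median gave r = 0.896 for Col4a1 with Col4a2 and 0.872 for Col4a3 with Col4a4. After group means were subtracted, r was 0.956 and 0.948.

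For these type IV pairs, the ratio of levels per kilobase spanned a narrower range than the levels themselves. Col4a1 over Col4a2 was 1.33 to 1.40 in the knockout-labelled libraries and 1.32 to 1.63 in the wildtype-labelled ones, while both genes spanned a 1.92-fold range over the libraries. Col4a3 over Col4a4 was 0.584 to 0.706 in the knockout-labelled libraries and 0.593 to 0.887 in the wildtype-labelled ones, while Col4a3 spanned a 3.21-fold range and Col4a4 a 2.12-fold range. Col4a5 and Col4a6, which also start back to back, 1308 bases apart on the X chromosome, had r = -0.02, given as a description because this pair was outside the 9. Col4a5 hardly varied (within-group SD 0.14 on the log2 scale) and Col4a6 had 445 reads over all libraries. The value therefore cannot show whether this pair varies together.

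Type I and type III chains also correlated over all libraries. The pairs Col1a1 with Col1a2 and Col1a1 with Col3a1 did not pass without wildtype replicate 1 alone (exact permutation, adjusted p = 0.0914 and 0.0670). They did not pass without wildtype replicate 4 alone either (exact permutation, adjusted p = 0.140 for both). Both type IV pairs passed without each library in turn. The Col1a1 pairs also failed without both wildtype replicates 1 and 4, the libraries farthest from the median of Col1a1. Such a removal narrows the range of values by construction, and over 6 libraries the type IV pairs did not pass either (exact permutation, adjusted p = 0.181 for both). Col1a1 with Col1a2 had r = 0.861 (exact permutation p = 0.0115, adjusted p = 0.0260) and rho = 0.881 (exact permutation p = 0.00724, adjusted p = 0.0217), and r = 0.468 without those 2 libraries. Col1a1 with Col3a1 had r = 0.873 (exact permutation p = 0.00724, adjusted p = 0.0217) and rho = 0.833 (exact permutation p = 0.0154, adjusted p = 0.0346), and r = 0.435 without them. Per kilobase, Col1a1 over Col1a2 was 0.571 to 0.847 in the knockout-labelled libraries and 0.439 to 1.05 in the wildtype-labelled ones. The type I molecule itself holds more alpha 1 than alpha 2 chains. The ratio depends on the exon lengths used, 6563 bases for Col1a1 and 12426 bases for Col1a2. It was not tested against the make-up of the molecule.

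The other 5 pairs did not pass. By exact permutation test, r was 0.723 for Col5a1 with Col5a2 (adjusted p = 0.0753; rho 0.571, adjusted p = 0.194), 0.648 for Col4a4 with Col4a5 (adjusted p = 0.119; rho 0.786, adjusted p = 0.0503) and 0.589 for Col6a1 with Col6a2 (adjusted p = 0.159; rho 0.381, adjusted p = 0.405). Col6a1 with Col6a3 had r = -0.302 (exact permutation, adjusted p = 0.502; rho -0.619, adjusted p = 0.173). Col8a1 with Col8a2 had r = -0.139 (exact permutation, adjusted p = 0.740; rho 0.071, adjusted p = 0.882). Per kilobase, Col6a6 over Col6a3 was 3.17 to 10.02 in the knockout-labelled libraries and 4.98 to 9.34 in the wildtype-labelled ones.

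**Figure D5:**
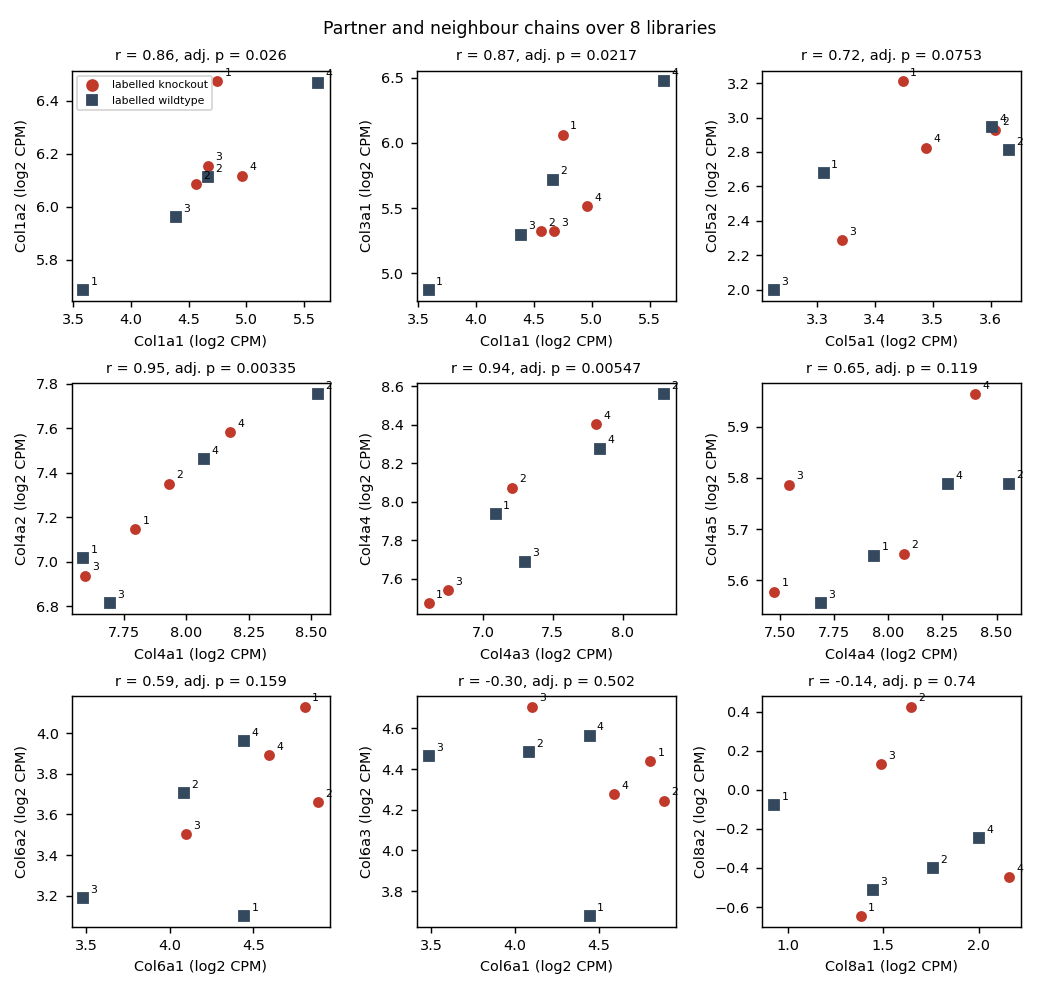
Log2 CPM of 9 pairs of chains over 8 libraries, with replicate numbers; circles are labelled knockout and squares labelled wildtype, and each panel gives Pearson's r and its adjusted exact permutation p. The points of Col4a1 with Col4a2 and of Col4a3 with Col4a4 lie close to a line, while those of Col6a1 with Col6a3 and Col8a1 with Col8a2 do not.

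Genes that make, bind and break down collagen were read from the same fit, and 0 of the 84 tested in 7 lists were called by edgeR, DESeq2 or limma-voom. At an unadjusted p under 0.05 there were 2 of 84 by each of the 3 tools, against the backgrounds given above. Of the enzymes that modify chains in the endoplasmic reticulum, 17 were tested, with 11 positive and 6 negative differences and a median of 0.10. Serpinh1, the collagen chaperone HSP47, averaged 95.03 ± 27.47 CPM in the knockout-labelled libraries and 77.8 ± 8.41 CPM in the wildtype-labelled ones (SD, n = 4 each; difference 0.29, SE 0.19). Its highest libraries, at 111 and 124 CPM, were knockout replicates 2 and 4, which also carried the raised heat-shock transcripts. P3h1, a prolyl 3-hydroxylase, differed by 0.17 (SE 0.11), and P4hb, the most abundant of the list by CPM and the beta subunit of prolyl 4-hydroxylase, by -0.09 (SE 0.11).

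Of 14 genes that cut propeptides or crosslink fibrils, 9 had a positive and 5 a negative difference, with a median of 0.15. Adamts14, an enzyme that removes the amino-terminal propeptide of fibrillar collagens, was at 2.22, 2.42, 3.12 and 2.00 CPM in the knockout-labelled libraries, against 1.225, 1.502, 1.770 and 1.42 CPM in the wildtype-labelled ones. Its groups did not overlap, but the difference of 0.72 (SE 0.23) had an unadjusted p of 0.0115 and an adjusted p of 0.957 by edgeR. Pcolce, which speeds removal of the carboxy-terminal propeptide, averaged 88.5 ± 11.6 CPM in the knockout-labelled libraries and 73.3 ± 5.34 CPM in the wildtype-labelled ones (difference 0.27, SE 0.11; unadjusted p = 0.0348 and adjusted p = 0.957 by edgeR). Sparc, a collagen-binding glycoprotein, differed by 0.17 (SE 0.10).

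Proteins that coat fibrils showed 9 positive and 3 negative differences among 12 tested genes, with a median of 0.14 and 0 at an unadjusted p under 0.05. The proteoglycan decorin, Dcn, differed by 0.21 (SE 0.14), fibulin 1, Fbln1, by 0.40 (SE 0.29), and biglycan, Bgn, by 0.08 (SE 0.21). Basement membrane partners of type IV collagen were evenly split, 7 and 7 of 14, with a median of 0.00. Lamb2, the laminin beta 2 chain of the glomerular filter, differed by 0.27 (SE 0.17), and Agrn, which encodes agrin, by -0.17 (SE 0.13).

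Collagen receptors had 3 positive and 4 negative differences among 7 tested genes, with a median of -0.05. Ddr1, a receptor kinase that binds collagen, averaged 141 ± 11.9 CPM in the knockout-labelled libraries and 164 ± 19.1 CPM in the wildtype-labelled ones (difference -0.22, SE 0.11; unadjusted p = 0.0764 and adjusted p = 0.957 by edgeR). Itga10, an integrin alpha chain, differed by 0.55 (SE 0.34), and its beta partner Itgb1 by 0.00 (SE 0.10). Genes of collagen breakdown had 5 positive and 4 negative differences among 9. Timp3, an inhibitor of metalloproteinases, averaged 1186 ± 232 CPM in the knockout-labelled libraries and 1563 ± 467 CPM in the wildtype-labelled ones (difference -0.40, SE 0.23), and Timp2 differed by 0.15 (SE 0.14).

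The TGF-beta pathway, which drives collagen production in fibrosis, had 7 positive and 4 negative differences among 11 genes, with a median of 0.04. Tgfbr2, a receptor of the pathway, differed by -0.21 (SE 0.11; unadjusted p = 0.0712 by edgeR).

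Marker lists of several cell types had mostly positive differences, against 51.3% of all genes, without a called gene. At an unadjusted p under 0.05 by edgeR were 4 of 9 endothelial and 3 of 7 smooth muscle and renin cell markers. The same held for 3 of 7 thick limb and distal, 2 of 5 heat-shock, 1 of 8 podocyte and 1 of 8 proximal tubule markers. The other marker lists had 0, and the background over all genes was 4.00%. All 10 fibroblast and pericyte markers had a positive difference and summed to 252 to 316 CPM in the knockout-labelled libraries and 236 to 273 CPM in the wildtype-labelled ones. All 7 smooth muscle and renin cell markers were positive, at 176 to 237 CPM in the knockout-labelled libraries and 105 to 167 CPM in the wildtype-labelled ones. Ren1 alone was at 65.5 to 122 CPM in the knockout-labelled libraries and 25.0 to 80.4 CPM in the wildtype-labelled ones. All 9 endothelial markers were positive, at 444 to 504 CPM in the knockout-labelled libraries and 382 to 425 CPM in the wildtype-labelled ones. No marker of these lists was at 0, and their part in the collagen values was not tested. Some lists of other cells and states were also positive, with 5 of 5 adipose, 7 of 7 urothelial, 4 of 4 red cell and 5 of 5 heat-shock genes. Thick limb and distal markers had 5 positive and 2 negative differences, and so did tubular injury markers. Macrophage markers had 1 positive and 5 negative differences. The part of these lists in the collagen values was not tested either. Proximal tubule markers had 2 positive and 6 negative differences and summed to 38510 to 65340 CPM in the knockout-labelled libraries and 51080 to 61960 CPM in the wildtype-labelled ones. Most of this sum was Kap, at 26080 to 51770 CPM in the knockout-labelled libraries and 37400 to 51830 CPM in the wildtype-labelled ones. Gene counts totalled 13871861 to 16629301 per library and 19486 to 20547 genes were detected.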

How the data were processed

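Per the labels' protocols, total RNA of whole kidneys (Trizol, then a column) went into directional libraries. The authors deposited raw gene counts, not normalized, for each library. Per the submitters' processing notes, STAR, HTSeq and edgeR were used with the build mm9, in versions and with a gene annotation not given in the sources used here. Counting ignored strand, per the deposited file names, so overlapping genes have uncertain counts. Lines that name no gene were left out: 11.6% to 16.2% of a library's counts lay outside genes, 2.05% to 2.31% were ambiguous and 15.8% to 20.9% were not unique.

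Symbols, coordinates and exon lengths came from GENCODE M21 on GRCm38, matched by identifier; no coordinate was converted. Libraries were grouped by their titles, and no 2 libraries agreed within sampling noise. The labels do not say that libraries came from separate animals, so the p-values cover only spread among these libraries. The test was edgeR 4.0.16 (R 4.3.3), quasi-likelihood, robust, TMM-scaled, filterByExpr with a minimum count of 10, genotype as the only term, fitted on all genes, two-sided, with Benjamini-Hochberg adjustment and a threshold of 0.05; it was tested on simulated data. Log2 CPM used a prior count of 2. A count of 0 allows 3 reads, 0.188 to 0.223 CPM by library; this covers counting error only. Alternatives were DESeq2 1.42.0, limma-voom (limma 3.58.1), RLE size factors, total counts, a minimum of 10 reads in all, a replicate block and fits leaving out 1 library; fits without pairs of libraries were chosen after seeing the data.

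The members and gene lists were chosen with earlier results of these data known. By rule, values per library are given for the 3 members of each class with the highest mean CPM and for members whose groups do not overlap or whose unadjusted p is under 0.05, of which there were 0; in other lists up to 2 genes of lowest p and the most abundant are named. Col1a1, Col5a3, Col6a5, Col13a1 and Col23a1 are described beyond this rule, after their values were seen. 1 gene that the rule takes is not reported here. The sums of classes have no test.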

Additional observations from a re-analysis of the deposited data

Results flagged for a closer look

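Of 74 sets of 4 libraries (33 tested members and 4 class sums in each group), 6 held a library farther from its group than Dixon's 95% limit for 4 values, 0.829 of the range; chance gives about 1 in 20, or 3.7 sets. In the libraries labelled knockout, Col5a3 was at 2.82 CPM in replicate 3, against 5.58 to 6.00 CPM in the other 3, and Col1a2 was at 88.8 CPM in replicate 1, against 67.8 to 71.2 CPM. Red cell markers summed to 6239 CPM in knockout replicate 1, against 163 to 1172 CPM in the other 7 libraries, and their part in the Col1a2 value was not tested. In the libraries labelled wildtype, replicate 1 stood apart for 3 genes: Col14a1 was at 21.8 CPM, against 42.4 to 45.6 CPM in the others, Col6a3 at 12.7 CPM, against 21.9 to 23.5 CPM, and Col23a1 at 8.64 CPM, against 4.11 to 4.51 CPM. This library carried adrenal transcripts, whose part was not tested. Col6a5 was at 1.81 CPM in wildtype replicate 4, against 0.632 to 0.751 CPM in the others.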

How the results depend on the processing

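No collagen gene was called by edgeR under any alternative, and class sums moved by less than the spread between libraries; without each library in turn, their log2 differences ran 0.03 to 0.23 (fibrillar), -0.34 to -0.03 (type IV), -0.31 to 0.03 (type VI) and 0.03 to 0.18 (others). Without the heat-shock libraries these were 0.04, -0.47, -0.36 and -0.0030. With all libraries kept, the median difference of the tested type VI members was 0.09, against -0.14 for the class sum. Correlations of same-numbered libraries were 0.226, -0.23, 0.282 and 0.293, against -0.43 to 0.453 for the other combinations. These are too few values to decide whether the replicate numbers of the labels pair the libraries. With the numbers as a replicate block, 0 members were called. In that fit 4 of 33 members (Col4a3, Col5a3, Col6a1 and Col6a6) were at an unadjusted p under 0.05, as were 1075 of all 14433 genes.

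Some named genes changed sign, none of them called. Col3a1 was 0.25 without wildtype replicate 4, Col4a1 0.090 without wildtype replicate 2, Col6a3 -0.016 without knockout replicate 3 and -0.074 without wildtype replicate 1, and Col15a1 0.043 without knockout replicate 2 and 0.018 without wildtype replicate 4. Without the adrenal libraries (knockout 2, wildtype 1), Col6a3 was -0.015. Without the heat-shock libraries (knockout 2 and 4), Col27a1 was -0.049, Col3a1 0.025, Col18a1 -0.047 and Col15a1 0.14. Without knockout 4 and wildtype 4, whose 10 clock genes summed to 590 and 625 CPM against 818 to 1137 CPM elsewhere, Col3a1 was 0.28 and Col15a1 0.046. Ranges without each library were -0.33 to 0.25 for Col3a1, -0.25 to 0.090 for Col4a1, -0.074 to 0.17 for Col6a3 and -0.23 to 0.043 for Col15a1.

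For correlations, deviations from group means gave 0.866 for Col1a1 with Col1a2 and 0.890 for Col1a1 with Col3a1. These were not below the 0.861 and 0.873 of the main test. Both pairs were still no longer past the adjusted threshold (permutation test of the deviations, adjusted p = 0.0885 and 0.0833). Over 6 libraries, without the 2 farthest, no pair passed: r was 0.468 and 0.435 for those pairs, 0.896 for Col4a1 with Col4a2, 0.872 for Col4a3 with Col4a4 and 0.182 for Col8a1 with Col8a2. Without the adrenal libraries, r was 0.689 for Col1a1 with Col1a2, 0.811 for Col1a1 with Col3a1 and 0.036 for Col8a1 with Col8a2, and Col6a1 with Col6a2 passed at 0.967; without the clock-shifted libraries, r was 0.796 for Col1a1 with Col3a1 and 0.070 for Col8a1 with Col8a2. The cause was not tested. Without each library in turn, r ran 0.709 to 0.979 for Col1a1 with Col1a2, 0.747 to 0.922 for Col1a1 with Col3a1, 0.507 to 0.861 for Col5a1 with Col5a2, 0.936 to 0.982 for Col4a1 with Col4a2, 0.911 to 0.973 for Col4a3 with Col4a4, 0.555 to 0.843 for Col4a4 with Col4a5, 0.363 to 0.7995 for Col6a1 with Col6a2, -0.493 to -0.229 for Col6a1 with Col6a3 and -0.290 to 0.011 for Col8a1 with Col8a2. At 4 libraries a group and a median interval width of 1.21 log2 units over the tested members, differences under 2-fold were often not detectable.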
